A study of Homo sapiens with 6 samples.

Results

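Transcript models can be taken from a reference annotation or built from the reads themselves. An assembler joins overlapping and spliced reads into models and gives new identifiers to those that match no annotated transcript, so that a gene can hold annotated and assembled isoforms side by side. Isoforms of a gene share most exons, and an estimator divides the shared reads among them, so the total of a gene is measured more directly than the split. The transcripts described here are those whose identifier begins with TCONS, the prefix of such assembled models, in the deposited mRNA tables. They numbered 12002 of the 92866 transcripts listed, and the other 80864 carry an Ensembl identifier. A mean of at least 10 counts over the 3 groups was reached by 7086 assembled transcripts (59.0%) and 32399 Ensembl transcripts (40.1%), and these are described and compared. At the edge of that limit, 183 assembled transcripts had a mean from 10 to 11 counts and 220 a mean from 9 to just under 10. A further 547 assembled transcripts were listed at 0 in every group.

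All libraries came from HCT116, a human colorectal cancer line, and 2 were made for each of 3 groups. The groups were the negative control (NC), transfection of a plasmid for the long non-coding RNA GAS5 (GAS5), and transfection of siRNA specific for YAP, the coactivator of the Hippo pathway (siYAP), while the sample labels list all 3 names under siRNA. The time after transfection and what the NC cells received are not given in the sources used here. Only 1 value per group and transcript was deposited, the authors' mean over the group's libraries, so replicate error is unknown, no test was run, and every interval below covers counting error only. The totals of these counts were 27206123 for NC, 25521577 for GAS5 and 26298036 for siYAP. The knockdown target YAP1 had only Ensembl transcripts, which together had 3480 counts for NC, 2679 for GAS5 and 1444 for siYAP. YTHDF3 likewise had no assembled transcript, and GAS5, which is non-coding, had no entry. Of 10 markers of colon epithelial cells, 7 had at least 395.5 counts in NC, while VIL1, LGALS4 and CDX1 stood at 0, 2 and 0 counts, and of 13 fibroblast, immune and endothelial markers 10 had at most 1.5 counts there, while COL1A1 had 378.5, CD68 had 202.5 and VWF had 31.

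What is known of each assembled transcript is a symbol and a description, which names the protein it resembles. A symbol was given for 11663 of the 12002, with 7443 different symbols, and 207 of the 7086 described had none. Of those 7086, the description named a human protein for 4859, a protein of another ape or an Old World monkey for 1370 and one of some other species for 787, mouse being named 47 times. The symbols were therefore checked against position. Identifiers run along the chromosomes, so the chromosome of each symbol in GENCODE 29 was compared with the most frequent chromosome among the 10 neighbours on each side. It was the same for 6438 of 6767 transcripts whose symbol has a known chromosome (95.1%) and another for 329. For the latter the symbol may name a relative and not the gene at that place, and they held 4.47% of the counts of the described transcripts. Symbols repeated over many assembled transcripts were often of this kind. C16ORF89 was given to 24 transcripts, of which 23 lay in a block of another chromosome, C8ORF17 to 20, all elsewhere, and ZNF714 to 21, of which 18 were elsewhere. SMG1, whose kinase acts in nonsense-mediated decay, was given to 38 transcripts and PKD1, the polycystin-1 gene, to 25, all within the block of their own chromosome. Both genes have near-identical copies on that chromosome, so these assignments and counts are uncertain. No coordinates or sequences of the assembled transcripts are used here, so none can be placed on exons.

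Their share of the sequenced fragments was similar in the 3 groups. They held 11.4% of all counts for NC (95% exact binomial interval 11.41 to 11.43), 11.5% for GAS5 and 11.7% for siYAP. Per length, as a share of summed FPKM, it was 7.51%, 7.47% and 7.57%. The counts were concentrated: the top 10 of the 12002 held 23.5% of the assembled counts, the top 100 held 42.5% and the top 1000 held 78.6%, against 6.66%, 21.0% and 49.0% for as many Ensembl transcripts.

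By far the most counts stood on TCONS_00041826, given to NEMF, a subunit of the ribosome quality control complex. Its count was 340822 for NC, 475053 for GAS5 and 477561 for siYAP, which is 1.25%, 1.86% and 1.82% of all counts. It was higher in both treated groups, with log2 fold changes of 0.58 and 0.60, under 2-fold in both. The 2 annotated NEMF transcripts with counts, ENST00000298310 and ENST00000556672, had 127.9 and 62.1 counts in NC, so the assembled model held 99.9% of the symbol. Its length, taken from the ratio of count to FPKM, is 6966 bases, 732 more than ENST00000298310. In GENCODE 29 (GRCh38) NEMF occupies chromosome 14 from 49782083 to 49853203 on the minus strand. Upstream on the same strand, 413 bases from its end, begins RN7SL3 (49853616 to 49853914), which encodes the abundant RNA of the signal recognition particle, and its far end is 711 bases from the end of NEMF. Whether the assembled model reaches over RN7SL3 was not tested. Without this transcript, assembled transcripts held 10.3%, 9.83% and 10.1% of the counts, so the order of the groups depends on it.

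The other abundant members named here were under 2-fold in both comparisons. PABPC1, which binds poly(A) tails, had 78109, 53802 and 73292 counts in NC, GAS5 and siYAP on TCONS_00138079, 63.4% of its symbol, and the GAS5 value was the lowest (log2 fold change -0.44). ESRG, a retroviral-derived transcript, had 43050, 30702 and 51526 counts on TCONS_00002640, although none of the 6 transcripts with that symbol lay among transcripts of its chromosome. SNRNP200, the helicase of the U5 spliceosomal particle, had 24803, 20915 and 23859 counts, 99.8% of the symbol. RPL13A of the large ribosomal subunit had 21710, 25162 and 28348, with a log2 fold change of 0.50 in siYAP. XRCC6, the Ku70 protein of DNA end joining, had 21559, 24675 and 16507. PFN1, the actin-binding profilin, had 21241, 18876 and 19467. GNB2L1 and RPS4 are older names of RACK1 and RPS4X, and the transcripts that bear them had 26207, 24801 and 29623 counts, and 25450, 23289 and 24644 counts. The most frequent chromosome among the neighbours of the former is 6, although its symbol is on chromosome 5. Its identifier falls between TCONS_00118809, in a block of chromosome 5, and TCONS_00119920, in a block of chromosome 6. Whether it stands at the border of these blocks was not tested. The Ensembl transcripts of these genes stand under the current names, with 11957 counts in NC for RACK1 and 12894 for RPS4X, so a share by symbol overstates such assembled transcripts. In all, 323 described transcripts had a symbol without any Ensembl transcript, and RefSeq lists the symbols of 142 of these as a synonym of a current symbol that has one. Those 323 stay out of the shares over 6556 transcripts and over 4701 symbols below. They are in the shares by class of mean count, in the classes and weighting by share, and in the shares of the lists.

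Histone genes make short, mostly unpolyadenylated mRNAs in clusters of near-identical copies. The description named a histone, or was that of the HIST1H2AG transcript, for 12 assembled transcripts picked once values were known, and they held 75285, 66933 and 72139 counts in NC, GAS5 and siYAP. The highest was TCONS_00119663, with no symbol and a description of a histone H2A, with 18674, 15042 and 19540 counts, followed by TCONS_00123212 (HIST1H2AG) with 17657, 14679 and 14845. The transcript of HIST1H2BK held 89.0% of its symbol, with 10226, 8524 and 9516 counts. Reads from such copies can be split among them, so single values are uncertain. Of these 12, 1 was past 2-fold in GAS5 and 1 in siYAP. A protein of a retroelement was named for 35 transcripts, also picked once values were known, with 56762, 40157 and 60685 counts, and the ESRG transcript above held most of them. Of the 35, 6 were more than 2-fold higher and 6 lower in GAS5, and 3 higher and 9 lower in siYAP, 34.3% in both. Over all assembled transcripts 28.3% were past 2-fold in GAS5 and 30.0% in siYAP, and over all transcripts of the same minimum 18% and 19.2%, while the histone transcripts had 8.33% in both.

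Assembled transcripts were longer than Ensembl transcripts. The length of a transcript is recoverable from its count and FPKM, and for 99.2% of 32383 Ensembl transcripts it came within 5% of the GENCODE 29 length. The median was 3719 bases for the assembled (quartiles 2283 and 5827) and 2287 bases for Ensembl (1283 and 3772). The difference held at every level of expression, from 2933 against 1554 bases at a mean of 10 to 20 counts to 4313 against 3023 bases at 1000 counts and over. Compared with the longest Ensembl transcript of the same symbol, however, most were not longer. Of 6274 assembled transcripts in the block of their symbol's chromosome, 2093 (33.4%) exceeded it, 36.9% lay within 5% of it, 301 were over 1.5 times as long, and the median difference was -141 bases.

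**Figure D1:**
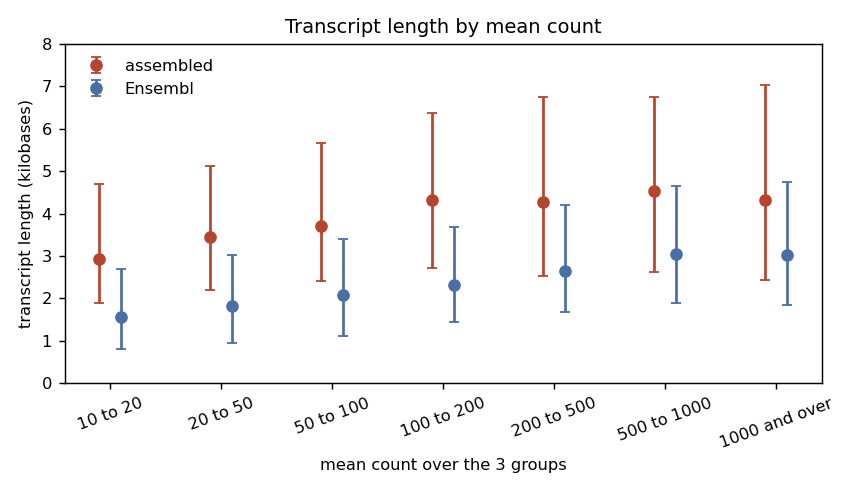
Transcript length in kilobases (vertical axis, points for medians, bars for quartiles) by mean count over the 3 groups (horizontal axis) for assembled and Ensembl transcripts. In every class the assembled median is the higher one, 2933 against 1554 bases in the lowest class.

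Most assembled transcripts were minor isoforms of a gene with annotated ones. For the 6556 described transcripts whose symbol also has an Ensembl transcript, the median share of the symbol's counts was 14.0% (quartiles 2.99% and 37.7%), 1004 of them (15.3%) held at least 50% and 120 at least 90%. Ensembl transcripts had a median of 19.1%, and 29.2% of them held at least 50%. Restricted to the symbols that also have an assembled transcript, the Ensembl median was 12.8% and 19.1% held at least 50%. The medians in classes of like mean count include the 323 transcripts whose symbol has no Ensembl transcript. They were close up to 500 counts, for example 4.87% against 4.42% at 20 to 50 counts and 31.9% against 34.4% at 200 to 500. Above that they parted, at 40.7% against 57.9% from 500 to 1000 counts and at 51.4% against 78.4% at 1000 counts and over. Counted by gene, assembled transcripts together held a median of 25.95% of the counts of 4701 symbols, and at least 50% for 1289 of them (27.4%). Of 4878 symbols, 3611 had 1 described assembled transcript, 925 had 2, and 48 had 5 or more.

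**Figure D2:**
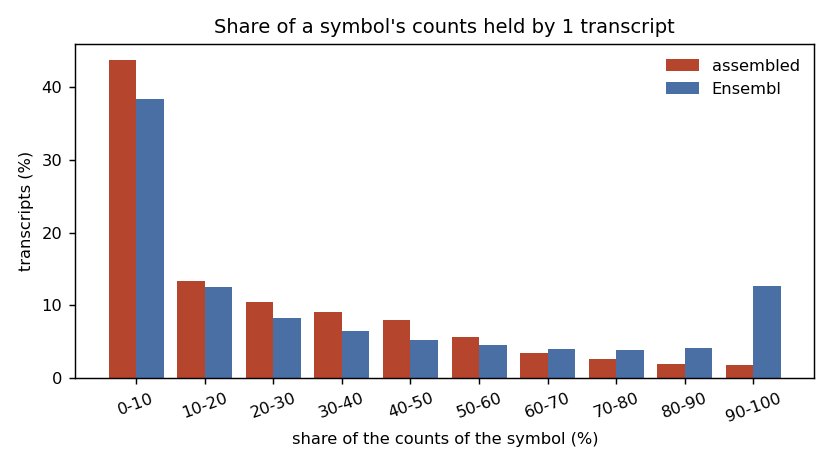
Share of its symbol's counts held by each transcript (horizontal axis, classes of 10 percentage points) and percent of transcripts in each class (vertical axis), for 6556 assembled and 32399 Ensembl transcripts. The lowest class holds 43.8% of the assembled, and the highest class holds 1.83% of the assembled against 12.7% of the Ensembl transcripts.

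For some well-expressed genes the assembled model held nearly every count. CMTM6, which keeps PD-L1 at the cell surface, had 2248, 1972 and 2128 counts in NC, GAS5 and siYAP on TCONS_00102231, 100% of the symbol. NEMF and SNRNP200, given above, are 2 more. HOXB5, a homeobox transcription factor, had 1468, 1009 and 1159 counts on a model of 9008 bases (99.5%). Its annotated ENST00000239151 has 2041 bases, and whether the model covers more than HOXB5 was not tested. EBP of cholesterol synthesis had 1368, 1437 and 1203 counts (99.3%). TOMM40, the channel of the mitochondrial outer membrane, had 3370, 4709 and 3113 counts (98.8%) and was highest in GAS5, with a log2 fold change of 0.58. KIF1A and DQX1 showed 99.95% and 99.7% but lay in blocks of other chromosomes, and the symbols of these 2 are doubtful.

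In the comparison of GAS5 with NC, a transcript was counted as past 2-fold, up or down, once scaled counts with a prior count of 2 differed by at least 1 on the log2 scale. This was so for 2007 of the 7086 assembled transcripts (28.3%), 984 higher and 1023 lower, against 18% of all 39485 transcripts of the same minimum (9.33% higher, 8.65% lower). In the comparison of siYAP with NC it was so for 2124 (30.0%), 916 higher and 1208 lower, against 19.2% of all (8.61% higher, 10.6% lower). Ensembl transcripts weighted to the same mean counts gave 19.2% in GAS5 and 20.6% in siYAP. Assembled transcripts exceeded Ensembl ones in every class of mean count and in both comparisons. At 200 to 500 counts, 11.9% were past 2-fold in GAS5 (95% exact binomial interval 9.94 to 14.0) against 4.30% of Ensembl transcripts (3.78 to 4.88), and in siYAP 13.8% (11.8 to 16.1) against 5.06% (4.49 to 5.68). At 1000 counts and over it was 2.77% against 0.791% in GAS5 and 2.03% against 0.681% in siYAP. Transcripts of a gene are not independent, so these intervals are too narrow.

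**Figure D3:**
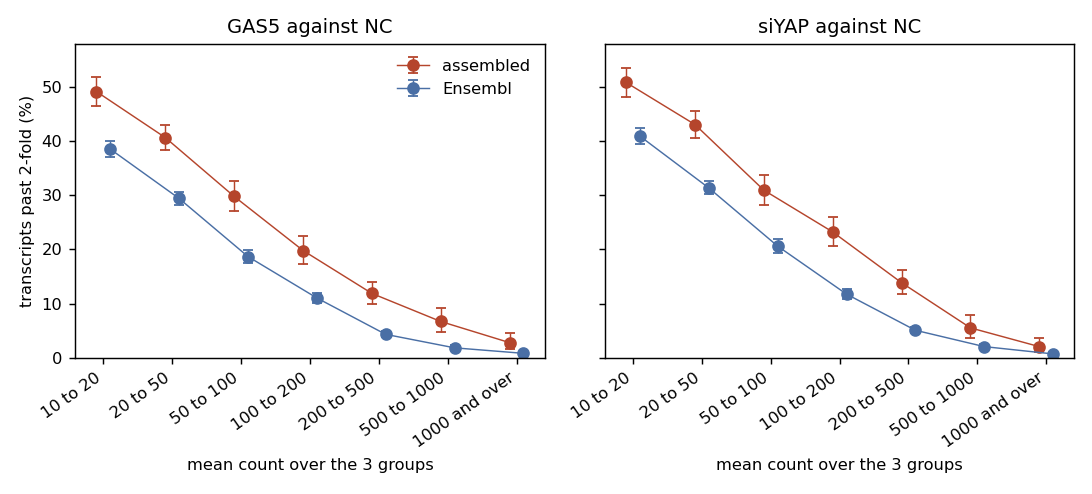
Percent of transcripts past 2-fold (vertical axis) by mean count (horizontal axis), for GAS5 against NC (left) and siYAP against NC (right), with exact 95% binomial intervals as bars. Both curves are lower at higher mean counts, and the assembled transcripts lie above the Ensembl ones in each class, at 49.2% against 38.6% in the lowest class in GAS5.

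The difference remained under further weighting. Weighted also to the number of transcripts of the symbol, the Ensembl values were 19.2% and 20.7%, and weighted to the share of the symbol 18.9% and 20.3%. Among transcripts that hold 5% or less of their symbol, 43.6% of the assembled and 32.2% of the Ensembl were past 2-fold in GAS5, and among those over 50% or without a symbol 10.8% and 3.23%. A mean over groups can be reached through 1 high group, which then has to differ. With at least 10 counts required in every group, 813 of 5257 assembled transcripts were past 2-fold in GAS5 (15.5%, against 9.92% of Ensembl transcripts of like mean count) and 884 in siYAP (16.8% against 10.7%). Both treatments were compared with the same NC values, so the comparisons are not independent.

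A value of 0 in a group was frequent. It was listed for at least 1 group in 966 of the 7086 (13.6%), against 4.94% of Ensembl transcripts and 6.31% after weighting to like mean count. By group, 215 were at 0 in NC alone, 205 in GAS5 alone and 303 in siYAP alone, while 76 were at 0 in GAS5 and siYAP, 77 in NC and GAS5 and 90 in NC and siYAP. With a mean of at least 100 counts it was 50 of 2996 (1.67%) against 0.352% of Ensembl transcripts. An estimator can assign 0 to an isoform whose reads it gives to another, so a 0 is a listed value and not a proof of absence.

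Most of these differences did not extend to the sum of the gene. Of the 1893 assembled transcripts past 2-fold in GAS5 whose symbol has an Ensembl transcript, the symbol's summed counts moved by less than 0.5 on the log2 scale for 1690 (89.3%), and by more than 2-fold in the same direction for 40. In siYAP it was 1694 of 1984 (85.4%) and 26. For comparison, 2.54% of all symbol sums were past 2-fold in GAS5 and 2.03% in siYAP. Ensembl transcripts past 2-fold showed the same in 86.0% and 83.1%, with 5.44% and 3.25% in genes that moved along, against 2.11% and 1.31% of the assembled. These shares are not matched on the share of the symbol. A sum contains the transcript itself, and 29.2% of described Ensembl transcripts hold at least 50% of their symbol, against 15.3% of the assembled. The contrast is therefore partly fixed in advance. Of 1267 symbols with at least 2 described assembled transcripts, 144 (11.4%) had 1 more than 2-fold higher and another more than 2-fold lower in GAS5, and 171 (13.5%) in siYAP. This was so for 7.05% and 7.92% of 8382 symbols with at least 2 Ensembl transcripts. These shares are not matched on mean count. Some of the symbols were given to transcripts in blocks of another chromosome, which may not be isoforms of 1 gene.

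In some symbols a pair of assembled isoforms of similar length moved in opposite directions. For SIPA1L2, a GTPase-activating protein of Rap, TCONS_00012781 had 498.5, 252.3 and 0.045 counts in NC, GAS5 and siYAP, and TCONS_00012780 had 0, 0 and 381.6, at least 138-fold higher in siYAP with a floor of 3 counts in the NC mean. The models differ by 35 bases in 6783, and the summed counts of the gene moved by -0.10 on the log2 scale. For TSC22D2, a leucine zipper protein, TCONS_00100308 had 507.6, 43.7 and 23.3 counts and TCONS_00100307 had 0, 572.7 and 441.4, at least 205-fold and 159-fold higher than NC. Both models are 3074 bases long, and the gene moved by 0.25 and -0.17. Under the symbol RAB44, TCONS_00031604 had 564.0, 123.2 and 340.9 counts and TCONS_00031603 had 100.4, 495.9 and 403.2, with log2 fold changes of -2.08 and 2.38 in GAS5 (counting intervals -2.30 to -1.90 and 2.18 to 2.63), although both lie in a block of another chromosome than RAB44.

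Elsewhere an assembled transcript and an annotated one of the same symbol moved in opposite directions. KLF7, a Krueppel-like transcription factor, had 7.58, 196.3 and 340.7 counts on TCONS_00087259 and 541.2, 173.8 and 85.8 on ENST00000309446, which is 170 bases longer. The assembled share of KLF7 was 1.08%, 38.8% and 63.5%. AGO4, an Argonaute protein of RNA silencing, showed the same order, with 22.3, 194.9 and 283.2 counts on TCONS_00001654 and 356.0, 11.3 and 58.5 on ENST00000373210. GALNT6, which starts mucin-type O-glycosylation, showed the opposite order, with 427.1, 162.3 and 0 counts on TCONS_00033198 and 45.9, 250.02 and 461.0 on ENST00000543196. The sums of these 3 genes moved by at most 0.41 on the log2 scale in either comparison.

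**Figure D4:**
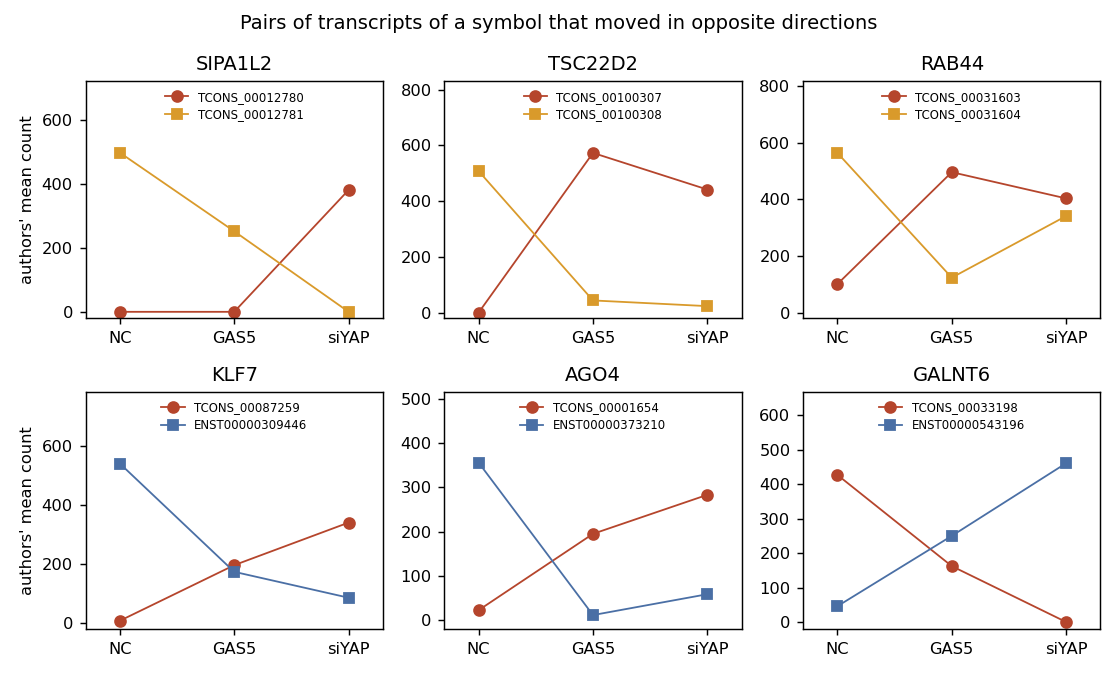
Authors' mean count (vertical axis, linear) in NC, GAS5 and siYAP for pairs of transcripts of 6 symbols, with lines joining the values of 1 transcript and no replicates to give error bars. The upper panels pair assembled transcripts and the lower panels an assembled with an Ensembl transcript. In SIPA1L2, 1 model has 498.5 counts in NC and the other has 381.6 in siYAP.

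Other members with the largest changes were listed at or near 0 in at least 1 group. NOMO1, a nodal modulator of the endoplasmic reticulum, had 0, 1032 and 792.8 counts on TCONS_00049633, and NOMO2 had 340.7, 0 and 0 on TCONS_00053409. These genes and NOMO3 are near-identical copies, so reads can move among them and the split is uncertain. TRIM56, an E3 ubiquitin ligase of antiviral signalling, had 0, 761.3 and 467.5 counts on a model of 10989 bases, at least 272-fold and 169-fold higher than NC, while ENST00000306085 of 10944 bases went from 1069 to 461.6 and 443.9. PKP3, a desmosomal plakophilin, had 692.9, 0 and 0 counts, and MEX3C, an RNA-binding ubiquitin ligase, 495.2, 0 and 0, at least 215-fold and 154-fold lower in GAS5. The PKP3 gene sum was higher by 0.37 and 0.48 on the log2 scale.

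In GAS5, EIF4A3, the helicase of the exon junction complex, had 818.4, 0 and 216.1 counts on its assembled transcript, COL6A2, a collagen VI chain, had 887.7, 0.175 and 785.0, and ARHGEF16, a guanine nucleotide exchange factor, had 583.7, 0.14 and 783.6. PIEZO1, a mechanosensitive channel, had 0, 397.6 and 0, and OSBPL11, a lipid transfer protein, had 0, 388.9 and 42.1. In siYAP, ANKHD1 had 897.4, 654.6 and 0.01 counts, CERS2, a ceramide synthase, had 729.5, 112.4 and 0, and ICE1, which takes part in small nuclear RNA transcription, had 679.9, 114.5 and 0. ZXDC, a zinc finger protein, had 0, 110.5 and 401.5, and SEPT11, a septin, had 0, 165.0 and 311.0. SERPINB1, an inhibitor of neutrophil proteases, had 0.17, 407.2 and 292.9. In all of these genes but CERS2, whose sum moved by -0.54 in siYAP, and PIEZO1, whose sum moved by 0.57 in GAS5, the sum moved by at most 0.50 in the comparison named. GLTSCR2 had 844.8, 0 and 612.5 counts on TCONS_00071182, but it is an older name of NOP53, whose Ensembl transcripts had 3970, 5202 and 6795 counts.

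Some assembled transcripts moved together with the sum of their gene. With a mean of at least 50 counts and an Ensembl transcript of the same symbol, 14 assembled transcripts were past 2-fold together with their gene's sum in GAS5, 9 higher and 5 lower, and 10 in siYAP, 3 higher and 7 lower. These were picked once values were known. At a mean of at least 10, 40 did so in GAS5 and 26 in siYAP. That is 2.11% and 1.31% of those past 2-fold, against 5.44% and 3.25% of Ensembl transcripts past 2-fold, not matched on the share of the symbol. The sum includes the transcript itself. For a transcript that holds most of its symbol, as for HELZ2, TRANK1, NEB and CASR, moving with the sum is fixed in advance. The 9 in GAS5 include OASL, IRF7, OAS3 and IFIH1 of the interferon list below. HELZ2, a helicase and nuclear receptor coactivator, had 1740, 5019 and 2227 counts on TCONS_00091680, 79.2% of the symbol, with a log2 fold change of 1.63 in GAS5 (counting interval 1.57 to 1.68). PLSCR1, a phospholipid scramblase, had 440.6, 853.4 and 302.7 counts (1.05 in GAS5). TRANK1 had 114.0, 233.8 and 134.6 and NEB, the nebulin of muscle thin filaments, had 75.1, 240.2 and 65.7, each with over 90% of its symbol. SCHIP1 had 47.3, 115.5 and 68.2. In siYAP, NGEF, a neuronal guanine nucleotide exchange factor, had 202.7, 197.3 and 443.2 counts and ACTA2, smooth muscle actin, had 112.6, 174.4 and 234.3. ESCO2, which acetylates cohesin, had 111.2, 160.1 and 29 counts, with a log2 fold change of -1.76 in siYAP and 0.62 in GAS5. CASR, the calcium-sensing receptor, had 252.6, 157.1 and 105.0 counts, all of its gene, and IL1RAPL1, a synaptic receptor, had 133.8, 41.2 and 33.9.

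Interferon-stimulated genes encode antiviral sensors and effectors that are induced together by interferons. Of 48 listed symbols, 14 had 15 described assembled transcripts, which held 9.56% of the list's counts. In GAS5, 6 of the 15 were more than 2-fold higher and 1 lower, and their median log2 fold change was 0.60, against -0.06 over all assembled and -0.0015 over all Ensembl transcripts. Over all assembled transcripts 13.9% were more than 2-fold higher and 14.4% lower in GAS5. The sums of 10 of the 14 genes were more than 2-fold higher. OASL, an OAS-like protein, had 27.9, 414.7 and 78.4 counts on its assembled transcript (3.90 in GAS5, counting interval 3.597 to 4.41), and was also past 2-fold in siYAP (1.54). IRF7, a transcription factor of the interferon response, had 71.5, 422.8 and 103.9 counts, and OAS3 and OAS1, which make the activator of RNase L, had 530.3, 2700 and 336.8, and 0, 80.3 and 0 counts. IFIH1, the RNA sensor MDA5, had 136.0, 278.8 and 87.6, and IFI27 had 1.90, 28.0 and 1.71. OAS1 and IFI27 reached the minimum mean of 10 only through GAS5, so their place among the 6 was fixed by that limit. Assembled isoforms did not always follow their gene. EIF2AK2 and DDX60 stood at log2 fold changes of 0.13 and 0.57 in GAS5, with gene sums at 1.17 and 2.02. In siYAP, 1 of the 15 was past 2-fold in each direction, OASL and DDX60. That is 13.3%, below the 30.0% of all assembled transcripts.

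The promoters printed below belong to genes whose sums were more than 2-fold higher in GAS5. The assembled transcripts of DDX60 and PARP14 were under 2-fold there, at 0.57 and 0.74. OASL and IRF7 have no promoter in the set searched. The letters GAAANNGAAA, a core of the interferon-stimulated response element, were searched on both strands of the 300 bases that RefSeq promoters hold here (250 before to 50 after the gene's start). They were found in 996 of 27305 promoters (3.65%), in 109 of 3704 for symbols of described assembled transcripts (2.94%) and in 7 of the 11 list members with a promoter in the table. Stretches of 30 bases upstream of the annotated start follow, on GRCh38.p14 and 5′ to 3′ along the gene, with matches on either strand in capitals.
OAS3 (chr12:112938321-112938350, plus strand): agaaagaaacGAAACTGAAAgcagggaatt
IFI27 (chr14:94110618-94110647, plus strand): atgtctgcagTTTCGGTTTCctggaaaatg
IFIH1 (chr2:162318824-162318853, minus strand): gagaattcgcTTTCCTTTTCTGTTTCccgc
DDX60 (chr4:168318821-168318850, minus strand): gtgctgaaggGAAACTGAAAcctaagtgct
PARP14 (chr3:122680800-122680829, plus strand): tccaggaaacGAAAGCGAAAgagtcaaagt
PLSCR1 (chr3:146544667-146544696, minus strand): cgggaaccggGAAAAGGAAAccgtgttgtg
PLSCR1 is not on the list but is among the 9 named above. The promoter of EIF2AK2 holds the letters after its start. Those of HELZ2, HLA-B, OAS1, STAT2, ADAR, NEB, SCHIP1 and TRANK1 do not contain these letters within the window. Of the 9 named above, 7 have a promoter here, and 3 of these 7 hold the letters. Of the 5 symbols that were lower in GAS5 together with their sum, 3 have a promoter here, and 0 of these 3 hold the letters. Another list member with a match is not shown. Where the assembled transcripts begin is not known here, and a match is a description of letters and not a bound site.

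Mitosis genes, which encode kinases, motors and checkpoint proteins of cell division, had 12 described assembled transcripts of 10 genes. In siYAP 4 of the 12 were more than 2-fold lower and 1 higher, with a median log2 fold change of -0.80, against -0.05 over all assembled transcripts, and 10 of the 12 were below 0. Over all assembled transcripts 17.0% were more than 2-fold lower and 12.9% higher in siYAP. The 1 that was higher, of CCNB1 with 0, 0 and 35.2 counts, reached the minimum mean of 10 only through siYAP. The sums of the 10 genes had a median of -0.54, and none was past 2-fold. BUB1B, a checkpoint kinase, had 906.4, 715.6 and 348.9 counts on TCONS_00043854 (-1.26 in siYAP, counting interval -1.39 to -1.14), with a gene sum at -0.91. KIF11, the motor that separates spindle poles, had 607.0, 475.2 and 256.5 (-1.12), and CENPE, a kinetochore motor, had 599.8, 510.7 and 303.7 (-0.86). PRC1, which bundles midzone microtubules, had 2 assembled transcripts with 79.8, 43.7 and 33.5 counts and 57.0, 45.7 and 4.42 counts. In GAS5 the median was -0.25, with 2 of the 12 lower, AURKA among them with 150.4, 6.85 and 168.7 counts, and none higher, which is 16.7% past 2-fold against 28.3% of all assembled transcripts.

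**Figure D5:**
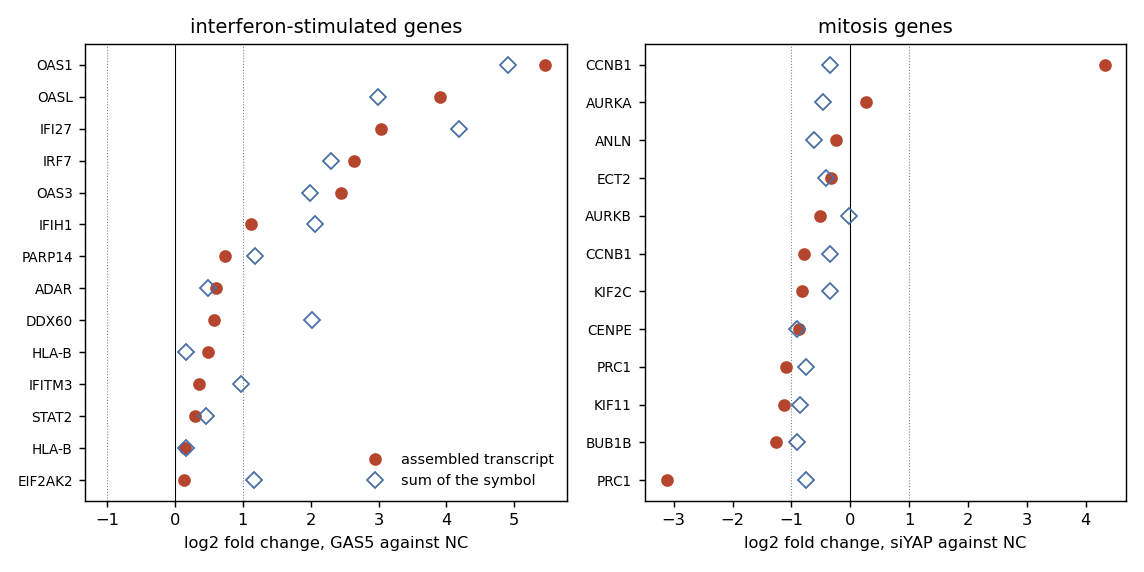
Log2 fold change (horizontal axis, dotted lines at 2-fold) of each assembled transcript (filled) and of the summed counts of its symbol (open) for interferon-stimulated genes in GAS5 (left) and mitosis genes in siYAP (right), 1 line per transcript. Of the 15 interferon-stimulated transcripts 14 are drawn, which lie right of 0, and the 1 that was more than 2-fold lower is not drawn. OAS1 and the upper CCNB1 transcript were listed at 0 in NC, so their positions depend on the prior count.

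Genes of the Hippo pathway, the kinase cascade that restrains YAP, had 20 assembled transcripts in 17 genes, with median log2 fold changes of 0.04 in GAS5 and 0.00 in siYAP. In GAS5 2 were more than 2-fold higher and 3 lower, in siYAP 1 higher and 4 lower. No sum of the 17 genes was past 2-fold in either. YAP1, which has no assembled transcript, is not among the 17, and its sum was at -1.15 in siYAP. The 2 higher in GAS5 were at 0 in NC and siYAP, so they reached the minimum mean of 10 only through GAS5. The share past 2-fold was 25% in both comparisons, near the 28.3% and 30.0% of all assembled transcripts. LATS1, the kinase that phosphorylates YAP, had 162.4, 156.0 and 0 counts on its assembled transcript, with a gene sum at -0.24 in siYAP. TEAD1, the DNA-binding partner of YAP, had 2629, 1740 and 2681 counts on TCONS_00019217 and 1421, 787.7 and 803.0 on TCONS_00019215. AMOT, an angiomotin that binds YAP, had 337.3, 149.5 and 164.2 and 31.1, 29.9 and 74.9. Of 12 assembled transcripts of YAP-TEAD target genes, 1 was higher and 2 lower in GAS5 and 2 lower in siYAP, with medians of -0.30 and 0.17. These are 25% and 16.7% of the 12, against 28.3% and 30.0% of all assembled transcripts. The 1 higher, of WWC1, had 0, 107.5 and 0 counts, so it reached the minimum mean of 10 only through GAS5. The AMOTL2 transcript at 0 in both treated groups, which is also in the Hippo list, reached it only through NC. F3, tissue factor, had 63.1, 0 and 69.8 counts, and 1 of the 2 AMOTL2 transcripts had 126.4, 0 and 0 while the other had 787.3, 958.8 and 1123.

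Genes of the m6A machinery, which writes and reads methylated adenosine, had 10 assembled transcripts. YTHDF2, a reader, had 823.7, 1212 and 1236 counts on TCONS_00001396 (0.66 and 0.70), with its gene sum at 0.13 and 0.14, and YTHDF1 had 1101, 1122 and 1061, 64.0% of the gene. METTL14 of the methyltransferase had 568.5, 471.4 and 424.5 counts on its main assembled transcript. In GAS5 1 of the 10 was higher and 1 lower, and in siYAP 3 were lower, 2 of YTHDC1, with 0 counts there, and 1 of KIAA1429. The 1 higher in GAS5, of YTHDC1 with 8.18, 26.7 and 0 counts, reached the minimum mean of 10 only through GAS5. These are 20% and 30% of the 10, near or below the 28.3% and 30.0% of all assembled transcripts. No Ensembl transcript bears the symbol KIAA1429, so its assembled transcript may not stand for the whole gene.

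The other lists differed in how much of their genes was assembled. Ribosomal protein genes, among the most expressed, had 41 assembled transcripts with a median share of 0.11%, and translation factor genes 40 with 1.70%. The 198 transcripts of numbered zinc finger genes had a median share of 17.3% and held 16.4% of the list's counts. Past 2-fold in GAS5 and siYAP were 51 and 52 of the 198. For ribosomal protein genes it was 9 and 12 of 41, for translation factors 16 and 13 of 40, for solute carriers 38 and 26 of 113, for oxidative phosphorylation 6 and 5 of 30, for the proteasome 4 and 3 of 14, and for SR and hnRNP splicing factors 2 and 6 of 21. The 42 transcripts of nonsense-mediated decay factors, 38 of them SMG1, had 8 and 12. Against 28.3% and 30.0% of all assembled transcripts, translation factors had 40% and 32.5%, solute carriers 33.6% and 23.0%, the proteasome 28.6% and 21.4%, zinc finger genes 25.8% and 26.3%, ribosomal protein genes 22.0% and 29.3%, oxidative phosphorylation genes 20% and 16.7%, nonsense-mediated decay factors 19.0% and 28.6%, and splicing factors 9.52% and 28.6%.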

How the data were processed

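RNA of HCT116 cells was sequenced as strand-specific libraries of mRNA and ncRNA, 2 in each of 3 groups. The submitters' processing notes name TopHat2 2.1.1, and the assembler, counter and genome build are not given in the sources used here. The authors deposited expected counts (estimated counts, not normalized) and FPKM per transcript as group means, with 0 FPKM written as 0.001. Every NC count with 3 decimals (25492) ended in 5, as a mean of 2 values does. Further columns hold the authors' fold changes and tests and were not used.

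The tables were joined on the transcript identifier. The siYAP table supplied the symbols, put in upper case, since 212 had become dates in the other. TMM factors (edgeR 4.0.16, R 4.3.3) were computed for each treated group against NC, and a prior count of 2 was added before logs were taken. edgeR's test and DESeq2's need libraries and were not run. DESeq2 1.42.0 gave size factors only. Lengths are count / FPKM, calibrated on 8084 Ensembl transcripts. Intervals (95%, exact) rest on 2 times the mean count and cover counting error only. Python 3.11.15, pandas 2.3.3 and scipy 1.17.1 were used, and steps were tested on simulated data.

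Members, lists and rules were chosen with earlier results of these data known. Named transcripts are the 10 highest by mean count, the 6 largest changes each way per comparison (mean of at least 50), the 8 highest shares (symbol mean of at least 500), the 6 largest share changes per comparison in genes with at least 200 counts in every group whose sum moved under 0.5, up to 3 per list, and any of YAP1 and YTHDF3, of which there were none. Others were chosen after their values were seen. Some members and 1 list are not reported here.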

Additional observations from a re-analysis of the deposited data

How the results depend on the processing

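No paired analysis was possible because libraries are averaged in the deposited tables. Leaving out a library and the library-level tests of edgeR and DESeq2 were therefore not run. The counts past 2-fold depended on the minimum. For assembled transcripts past 2-fold, GAS5 against NC, the 2007 became 4225 with no minimum, 354 with a mean of at least 100 and 813 with at least 10 counts in every group, and for assembled transcripts past 2-fold, siYAP against NC, the 2124 became 4152, 396 and 884. DESeq2 size factors, total counts, FPKM ratios, prior counts of 0.5 and 10 and, chosen after seeing the data, only transcripts in the block of their symbol's chromosome kept both counts within 1.5 times. The share of all counts in NC, GAS5 and siYAP was 7.51%, 7.47% and 7.57% by FPKM and, chosen after seeing the data, 10.3%, 9.83% and 10.1% without the NEMF transcript. The median share of a symbol was 12.3% by FPKM, 32.6% with a mean of at least 100 and 7.43% for symbols with a mean of at least 500. The share listed at 0 was 1.67% for assembled and 0.352% for Ensembl transcripts with a mean of at least 100. Of 80 values of named transcripts past 2-fold, 0 changed sign under other scalings, prior counts and FPKM ratios, 4 were under 2-fold in at least 1 of these, and 0 were with total counts or DESeq2 size factors. The median of all transcripts moved to -0.065 in siYAP with total counts, from -0.0026 with TMM.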
